A study of Arabidopsis thaliana with 15 samples.

Results

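Seedling shoots of the Arabidopsis line eS6A-Δ6SA were compared with those of the single mutant rps6b, with 3 RNA libraries from each. The line eS6A-Δ6SA is mutant in both genes for ribosomal protein eS6 and carries an eS6A transgene named Δ6SA (genotype rps6a rps6b; eS6A-Δ6SA), described for this comparison as a phospho-dead form. The line rps6b is mutant in RPS6B alone and keeps its own RPS6A gene, so that both genotype names include rps6b. The names do not tell whether the allele is the same in both groups. The promoter of the transgene, the codons it changes and whether it is 1 insertion line are not given in the sources used here. All seedlings were 12 days old and had grown on half-strength MS medium under days of 16 h light and 8 h darkness. The 6 libraries belong to a series of 15, whose other groups were WT, the single mutant rps6a, and the double mutant with an eS6A-HA transgene in place of Δ6SA (rps6a rps6b; eS6A-HA). Ribosomal RNA had been depleted from total RNA before sequencing. Of 21777 genes listed, the 16335 with a mean normalized count of at least 10 over all 15 libraries were tested, and spike-in rows were left out. No label says that the libraries of a group came from separate cultures, so p-values measure the spread between these libraries.

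Ribosomal protein eS6 sits in the small ribosomal subunit and carries serines near its C-terminal end that are phosphorylated by S6 kinase, a target of the growth-promoting kinase TOR. Arabidopsis makes the protein from paralogous genes, RPS6A and RPS6B. TOR signalling is known in plants for promoting ribosome production, and its activity follows light and sugar supply, while the kinase SnRK1 acts under energy shortage.

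The ends of the coding sequences are shown because the phosphorylated serines of eS6 lie there. Both were read from the RefSeq genome TAIR10.1, run 5′ to 3′ over the last 25 codons before the stop codon, and have their serine codons in capitals. RPS6A (AT4G31700) lies at chr4:15346309-15346383 on the minus strand in this stretch, and RPS6B (AT5G10360) at chr5:3258737-3258811 on the minus strand.
RPS6A: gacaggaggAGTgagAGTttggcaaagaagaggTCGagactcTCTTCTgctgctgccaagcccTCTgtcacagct
RPS6B: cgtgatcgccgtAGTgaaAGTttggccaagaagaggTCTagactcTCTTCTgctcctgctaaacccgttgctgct
The RPS6A stretch holds 6 serine codons and the RPS6B stretch holds 5. Over the whole coding sequences, of 250 and 249 codons, each gene has 15. The coding sequences share 0 stretches of 75 bases and 8 of 30 bases, so reads of 75 bases can be told apart between the genes. Reads from the transgene are counted at RPS6A where its sequence matches that gene.

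The genes that define the lines were examined first. RPS6A stood at 1112, 1385 and 1220.3 normalized counts in the 3 eS6A-Δ6SA libraries and at 1579, 1800.4 and 1792 in the 3 rps6b libraries. The groups did not overlap, and the RPS6A level was lower in eS6A-Δ6SA by 0.48 on the log2 scale (SE 0.11, limma adjusted p 0.00281). Scaled to the spike-in RNAs, the difference of RPS6A was -0.30 and its adjusted p was 0.119. RPS6B transcripts were at 67.5, 58.4 and 67.0 normalized counts in eS6A-Δ6SA and at 253, 270.5 and 276 in rps6b, which made a log2 fold change of -2.03 with an SE of 0.10 (adjusted p 1.05e-16 by limma). Although RPS6B is named as mutated in both lines, about 4 times as much RNA was counted at it in rps6b. A difference in allele or background between the lines was not tested.

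Summed over both genes, reads reached 1304 ± 133 normalized counts in eS6A-Δ6SA (SD, n = 3) and 1990 ± 137 in rps6b. Reads at mutated RPS6B are included, with means of 64.3 in eS6A-Δ6SA and 266 in rps6b. Transgene reads are included only where they match RPS6A, so the sum does not measure intact eS6 transcripts. The libraries did not overlap, and the exact two-sided permutation test gave p = 0.1, the smallest that 3 against 3 libraries allow (0.133 adjusted over 4 such tests). For reference, the sum was 1883 ± 159 in WT, 1292 ± 42.4 in rps6a and 1913 ± 70.0 in eS6A-HA.

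**Figure D1:**
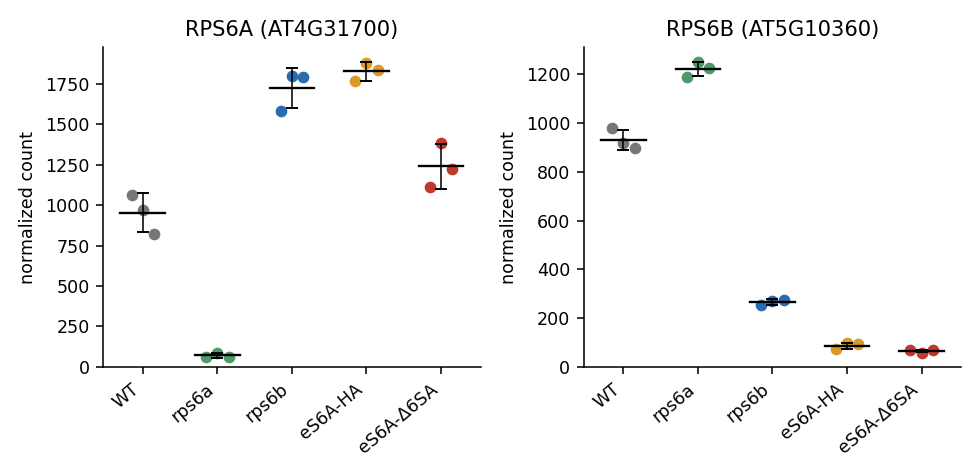
Normalized counts of RPS6A (left) and RPS6B (right) in each of the 15 libraries, by genotype; points are libraries, horizontal lines are group means and vertical bars are SDs. RPS6A in eS6A-Δ6SA lies below rps6b without overlap, and RPS6B is lowest in the transgenic lines.

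Across the transcriptome, 2701 of 16335 genes differed between the groups at a limma adjusted p under 0.05 (16.5%), and these are the genes called here. Of them 1412 were higher in eS6A-Δ6SA (8.64% of all tested) and 1289 lower (7.89%). A change of at least 1 on the log2 scale was found in 1.86% of all tested genes, 127 called higher (0.777%) and 177 called lower (1.08%). The libraries of the groups did not overlap in 32% of all tested genes, 16.3% higher and 15.7% lower, a share that bears on every gene below whose groups are said not to overlap. The median log2 fold change of all tested genes was near 0, at -0.0011. Scaled to the spike-in RNAs, whose share of reads was 4.80% ± 0.495 in eS6A-Δ6SA and 5.67% ± 0.364 in rps6b, the median moved to 0.17 and the calls to 2122 higher and 333 lower. Fold changes given below are thus read against most other transcripts. Recovered gene reads were fewer in the eS6A-Δ6SA libraries, 7215397 to 8018598, than in the rps6b libraries, 8549434 to 10009723, and the part of depth in the results was not tested. Of 14 root marker genes 7 are listed in the table, their summed normalized counts were at most 12.7 in any eS6A-Δ6SA library and 10.8 in any rps6b library, and from 3 to 5 of the 7 were at 0 in an eS6A-Δ6SA library and 1 in each rps6b library. In bulk shoots, fewer cells of a type and less RNA per cell cannot be told apart. For reference, eS6A-HA against rps6b had 3748 genes called in the same fit (22.9% of all tested).

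**Figure D2:**
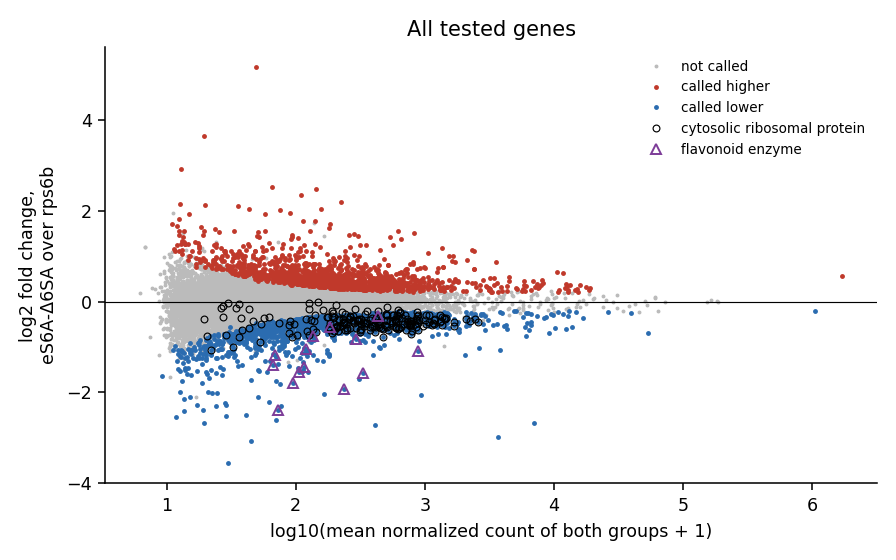
Log2 fold change of each tested gene, eS6A-Δ6SA over rps6b, against log10 of the mean normalized count plus 1 of both groups; coloured points have an adjusted p under 0.05. Open circles, the cytosolic ribosomal protein genes, form a band just below 0, and triangles, the flavonoid enzyme genes, lie further down.

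Genes for cytosolic ribosomal proteins, the structural parts of the ribosome, differed in 1 direction. Of 81 tested genes for 40S proteins, all 81 had lower means in eS6A-Δ6SA and 53 were called lower. Of 118 tested genes for 60S proteins, all 118 were lower and 87 were called lower. Those shares are 65.4% and 73.7%, beside 7.89% of all tested genes called lower, and both lists had a median log2 fold change of -0.45. By limma 0 members of either list were called higher, with 0 at an unadjusted p under 0.05 and 0 by edgeR or DESeq2. Spike-in scaling left medians of -0.28 in both lists against 0.17 for all genes, with 15 and 24 members called lower and with 7 and 5 members no longer lower. By edgeR or DESeq2 80 of the 81 and all 118 had lower means, and without eS6A-Δ6SA replicate 1 it was 76 and 116.

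Single members showed the size of the difference. RPS15 (AT1G04270), a 40S protein, was at 571, 643 and 576 normalized counts in eS6A-Δ6SA and at 980.3, 977 and 981 in rps6b (log2 fold change -0.72 with an SE of 0.08, adjusted p 5.15e-08 by limma). Its rps6b libraries lay within a few counts of each other and all above the eS6A-Δ6SA libraries. RPS15A (AT1G07770), of the same subunit, fell by 0.58 (limma adjusted p 2.06e-05), AT5G28060, an S24e family gene, by 0.51 (adjusted p 0.0779 under spike-in scaling) and AT5G18380 by 0.57. Of the 60S genes, AT2G44120 (L30/L7 family) was at 514, 622 and 543 in eS6A-Δ6SA and at 816, 925 and 862 in rps6b (log2 fold change -0.63 with an SE of 0.09, adjusted p 3.57e-06 by limma). AT5G27850 (L18e/L15 family), AT3G53430 (L11 family) and AT3G55750 (L35Ae family) fell by 0.63, 0.58 and 0.64 on the log2 scale. Most ribosomal proteins have several near-identical genes, so the split of reads between copies is uncertain.

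Summed over the 40S list, normalized counts were 27632, 36831 and 31208 in eS6A-Δ6SA and 41537, 44390 and 42491 in rps6b. The 60S sums were 45343, 59933 and 52689 in eS6A-Δ6SA and 67608, 74449 and 71509 in rps6b. In both lists eS6A-Δ6SA replicate 1 was the lowest library, and without it 35 of the 81 genes for 40S proteins were called lower, with a median log2 fold change of -0.36. Against WT, rps6b had 59 of 81 and 85 of 118 members called higher, beside 11.6% of all genes called higher in that comparison and 23.3% called in either direction. The same members in eS6A-Δ6SA against WT gave 0 called in the 40S list and 1 called lower in the 60S list, where 3 and 10 passed an unadjusted p under 0.05, beside 2.57% of all genes called. The line with the eS6A-HA transgene differed from rps6b in the same direction as eS6A-Δ6SA. In eS6A-HA against rps6b 67 of 81 and 96 of 118 members were called lower, with medians of -0.55 and -0.56. Of all genes 11.2% were called lower in that comparison. The comparisons share libraries and are set side by side only.

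**Figure D3:**
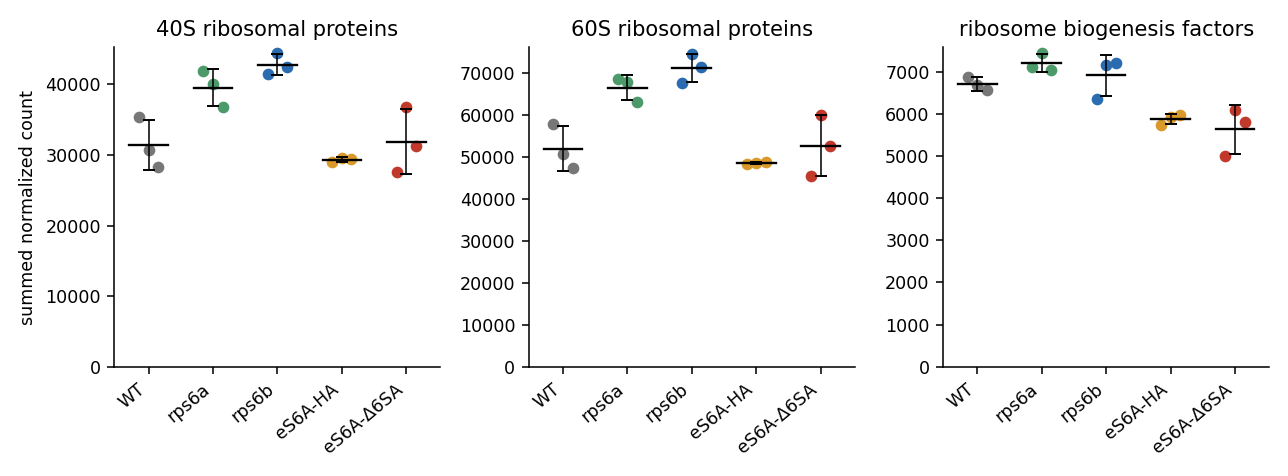
Summed normalized counts per library of the genes for 40S proteins (left), 60S proteins (middle) and ribosome biogenesis factors (right), by genotype; points are libraries, lines are means and bars are SDs. In the ribosomal protein panels the eS6A-Δ6SA libraries overlap those of WT and lie below all 3 rps6b libraries.

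Promoters of ribosomal protein genes are known for site II elements and telo-boxes, and those of many flavonoid genes for G-boxes, so the 250 bases before the annotated gene start were searched on both strands for GGCCCA (the site II core), AAACCCTA (telo-box) and CACGTG (G-box). Among 199 ribosomal protein genes, 54.3% held the site II core and 18.1% the telo-box, beside 18.1% and 3.65% of the promoters of 15844 tested nuclear protein-coding genes. The G-box was in 3.02% of the ribosomal protein promoters and in 7.66% of all. Of 14 flavonoid enzyme promoters, 35.7% held the G-box. Of all genes called lower 23.1% held the site II core and 4.97% the telo-box, and of those called higher 11.8% and 1.67%. These elements were frequent in other lists too. Of 39 ribosome biogenesis promoters, 56.4% held the site II core and 17.95% the telo-box. The site II core was in 66.7% of 9 promoters of organelle RNA polymerases and sigma factors. There all 9 log2 fold changes were positive, but 7 under upper quartile scaling or without rps6b replicate 1 or 2. It was in 70.0% of 10 DNA replication promoters, of which 1 gene was called. The G-box was in 58.3% of 12 promoters of morning clock genes, of which 7 were called higher. The promoters shown belong to the genes of each subunit list with the smallest adjusted p, to the ribosomal protein gene with the smallest adjusted p among those with both elements, and to the flavonoid enzyme gene with the smallest adjusted p among those with a G-box. They come from TAIR10.1, run 5′ to 3′ on the strand of the gene and have the matches in capitals. RPS15 lies at chr1:1143131-1143380, minus strand, AT2G44120 at chr2:18251157-18251406, minus strand, AT1G52300 at chr1:19476235-19476484, minus strand and CHIL (AT5G05270) at chr5:1563036-1563285, plus strand.
RPS15 promoter: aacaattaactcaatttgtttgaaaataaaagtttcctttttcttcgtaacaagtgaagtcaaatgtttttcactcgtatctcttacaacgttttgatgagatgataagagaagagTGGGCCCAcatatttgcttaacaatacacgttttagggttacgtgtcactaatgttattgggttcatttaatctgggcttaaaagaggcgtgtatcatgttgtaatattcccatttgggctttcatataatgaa
AT2G44120 promoter: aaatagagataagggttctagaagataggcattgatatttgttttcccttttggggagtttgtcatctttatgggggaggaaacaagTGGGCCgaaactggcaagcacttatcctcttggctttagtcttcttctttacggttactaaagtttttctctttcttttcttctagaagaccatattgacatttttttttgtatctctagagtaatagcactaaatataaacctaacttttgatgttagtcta
AT1G52300 promoter: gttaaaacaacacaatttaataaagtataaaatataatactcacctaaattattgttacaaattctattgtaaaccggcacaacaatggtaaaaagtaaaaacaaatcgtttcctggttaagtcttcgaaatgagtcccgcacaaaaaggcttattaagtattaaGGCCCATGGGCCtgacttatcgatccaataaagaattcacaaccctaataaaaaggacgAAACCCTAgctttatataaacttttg
CHIL promoter: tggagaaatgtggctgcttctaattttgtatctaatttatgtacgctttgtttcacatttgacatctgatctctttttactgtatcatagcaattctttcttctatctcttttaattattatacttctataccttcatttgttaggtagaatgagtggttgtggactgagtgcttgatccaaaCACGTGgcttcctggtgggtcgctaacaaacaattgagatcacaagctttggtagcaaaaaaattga
The RPS15 match is GGCCCA on both strands, overlapping, and AT2G44120 has it once on the opposite strand. AT1G52300, a 60S gene, has GGCCCA once on each strand and the telo-box nearer its start, and CHIL has a single G-box. A match of letters does not show that a factor binds there.

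Genes for ribosome assembly were lower too, by less. Of 39 nucleolar and ribosome biogenesis factors, 15 were called lower (7.89% of all genes were), with 0 called higher by limma, 0 at an unadjusted p under 0.05 and 0 by edgeR or DESeq2, and the median was -0.32. FIB2 (AT4G25630), a fibrillarin of the box C/D particles that methylate ribosomal RNA, was at 24.3, 52.7 and 41.2 in eS6A-Δ6SA and 69.8, 74.9 and 79.1 in rps6b (log2 fold change -0.97 with an SE of 0.20, adjusted p 0.000583 by limma). AT5G14520, annotated as pescadillo-like, and AT5G41190, annotated as NOB1-like, fell by 0.44 and 0.51, and AT2G40360, a WD40 protein of the list, by 0.47. These 3 calls were lost under spike-in scaling (adjusted p 0.229, 0.124 and 0.168), where 2 of the 39 were called. Without eS6A-Δ6SA replicate 1 or without rps6b replicate 3, 8 were called. AT2G40360 was lower in eS6A-Δ6SA than in WT as well, by 0.47 (limma adjusted p 0.00522), and its rps6b level was close to that of WT (349.6 and 348).

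Of 9 tested TOR and S6 kinase genes 1 was called in each direction, beside 8.64% of all genes called higher and 7.89% lower. Under spike-in scaling 3 were called higher and 0 lower (median 0.33 against 0.17 for all genes). AT3G51800 (symbol ATG2 in the reference), the plant relative of the growth regulator EBP1, fell by 0.40 from 444, 476 and 469 in rps6b to 349, 338 and 364 (limma adjusted p 0.000672, and 0.260 under spike-in scaling). AT3G08730 (PK1), which codes for an S6 kinase, was higher by 0.22 at an adjusted p of 0.0463. That call was lost in 12 of 18 alternatives, among them edgeR (0.0556), DESeq2 (0.0625), leaving out any eS6A-Δ6SA library, and leaving out rps6b replicate 1 or 2.

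Enzyme genes of flavonoid and anthocyanin synthesis were the list with the lowest median, at -1.29. All 14 tested members were called lower in eS6A-Δ6SA (7.89% of all genes were), and 0 higher by limma (0 at an unadjusted p under 0.05, and 0 by edgeR or DESeq2). In eS6A-HA against rps6b 11 of the 14 were called lower and 0 higher, beside 11.2% of all genes called lower. F3H (AT3G51240) was listed at 0 in all 6 libraries and did not pass the filter on low values. Under spike-in scaling all 14 were still lower and 12 were called. TT4 (AT5G13930), chalcone synthase at the entry of the pathway, was at 574, 537 and 580.3 normalized counts in eS6A-Δ6SA and at 1149.7, 1264 and 1200.2 in rps6b (log2 fold change -1.09 with an SE of 0.11, adjusted p 1.17e-07 by limma). 4CL3 (AT1G65060), which activates the coumaric acid precursor, fell by 1.40, and CHIL, a chalcone isomerase-like protein, by 0.83 (limma adjusted p 1.41e-07 and 6.05e-08).

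UF3GT (AT5G54060), which adds a sugar to the pigment, was at 38.0, 12.6 and 21.6 in eS6A-Δ6SA and 94.9, 141 and 125 in rps6b (log2 fold change -2.39 with an SE of 0.32, adjusted p 5.07e-05 by limma). GSTF12 (AT5G17220), the glutathione S-transferase needed to bring anthocyanins to the vacuole, was at 57.0, 44.7 and 58.7 in eS6A-Δ6SA and 147, 169 and 156 in rps6b (log2 fold change -1.55 with an SE of 0.17, adjusted p 2.99e-08 by limma). No library of the groups overlapped for these genes. LDOX (AT4G22880) and DFR (AT5G42800), singled out after their values were seen, fell by 1.92 and 1.58. At the other end of the list, scpl10 (AT2G23000) fell by 0.33.

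The regulators moved in both directions. PAP1 (AT1G56650), the MYB activator of anthocyanin genes, was at 34.8, 19.5 and 36.1 in eS6A-Δ6SA and 94.9, 85.5 and 80.9 in rps6b (log2 fold change -1.55 with an SE of 0.22, adjusted p 6.87e-06 by limma). TT8 (AT4G09820), its basic helix-loop-helix partner, fell by 1.22 (limma adjusted p 0.00139). MYBL2 (AT1G71030), a repressor of the pathway, rose from 156, 143 and 142 in rps6b to 426, 419 and 394 (log2 fold change 1.48 with an SE of 0.10, adjusted p 8.02e-14 by limma). TTG1 (AT5G24520), the WD40 partner, rose by 0.55 (limma adjusted p 0.000596), and EGL3 and MYB111 were not called. Of 11 regulators listed 6 passed the filter on low values. Against WT, 13 of the 14 enzyme genes were called higher in rps6b, while eS6A-Δ6SA had 1 called higher and 2 called lower (2.57% of all genes were called). GSTF12 was the one higher, with 24.7 in WT, 54.8 in eS6A-HA, 53.5 in eS6A-Δ6SA and 157 in rps6b, and CHIL and 4CL3 were below WT (adjusted p 0.000657 and 0.0186) and below eS6A-HA (0.000927 and 0.00353), a comparison in which 2.63% of all genes were called, 1.23% of all genes higher and 1.4% lower.

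Genes induced by sugar starvation and SnRK1 had the highest median of the lists, 0.88. Of 20 tested members 12 were called higher and 1 lower, beside 8.64% of all genes called higher. ASN1 (AT3G47340), asparagine synthetase, which is known to be repressed by sugar, was at 431, 330.0 and 341 in eS6A-Δ6SA and at 104, 61.9 and 76.4 in rps6b (log2 fold change 2.19 with an SE of 0.21, adjusted p 6.48e-06 by limma). SEN1 (AT4G35770), a dark-induced gene, was at 123, 89.4 and 113 in eS6A-Δ6SA and 32.9, 10.6 and 16.2 in rps6b (log2 fold change 2.52 with an SE of 0.30, adjusted p 3.12e-05 by limma). AT3G15450, annotated as aluminum-induced, was at 116, 131 and 115 in eS6A-Δ6SA and 36.1, 23.6 and 28.7 in rps6b (log2 fold change 2.02 with an SE of 0.17, adjusted p 8.13e-11 by limma). In each of these genes the lowest eS6A-Δ6SA library was more than 2 times the highest rps6b library.

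Members with other roles followed the same direction. TPS8 (AT1G70290), of the trehalose-6-phosphate synthase family, rose from a mean of 335 in rps6b to 799. TPS11 (AT2G18700), of the same family, rose by 1.72 on the log2 scale, and ATCTH (AT2G25900), a zinc finger gene, by 1.25 (limma adjusted p 7.34e-10, 1.29e-09 and 1.15e-10). AT2G33830, a dormancy-associated family gene, had 32.7, 33.2 and 37.1 normalized counts in eS6A-Δ6SA and 5.49, 2.44 and 0 in rps6b, where it was at 0 in a library. GBF6 (AT4G34590), the transcription factor bZIP11 whose translation sucrose represses, went the other way and was at 20.1, 20.6 and 19.6 in eS6A-Δ6SA and 55.7, 57.8 and 51.2 in rps6b (log2 fold change -1.41, limma adjusted p 3.41e-05). KIN10, the catalytic subunit of SnRK1, was not called (log2 fold change 0.11, adjusted p 0.468). These 3 genes were singled out after their values were seen. In eS6A-Δ6SA against WT 0 members were called by limma, and 4 passed an unadjusted p under 0.05, whereas rps6b against WT had 12 called lower and 2 higher (11.7% of all genes were called lower). In eS6A-HA against rps6b 14 of 20 tested members were called higher and 2 lower, beside 11.8% of all genes called higher.

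**Figure D4:**
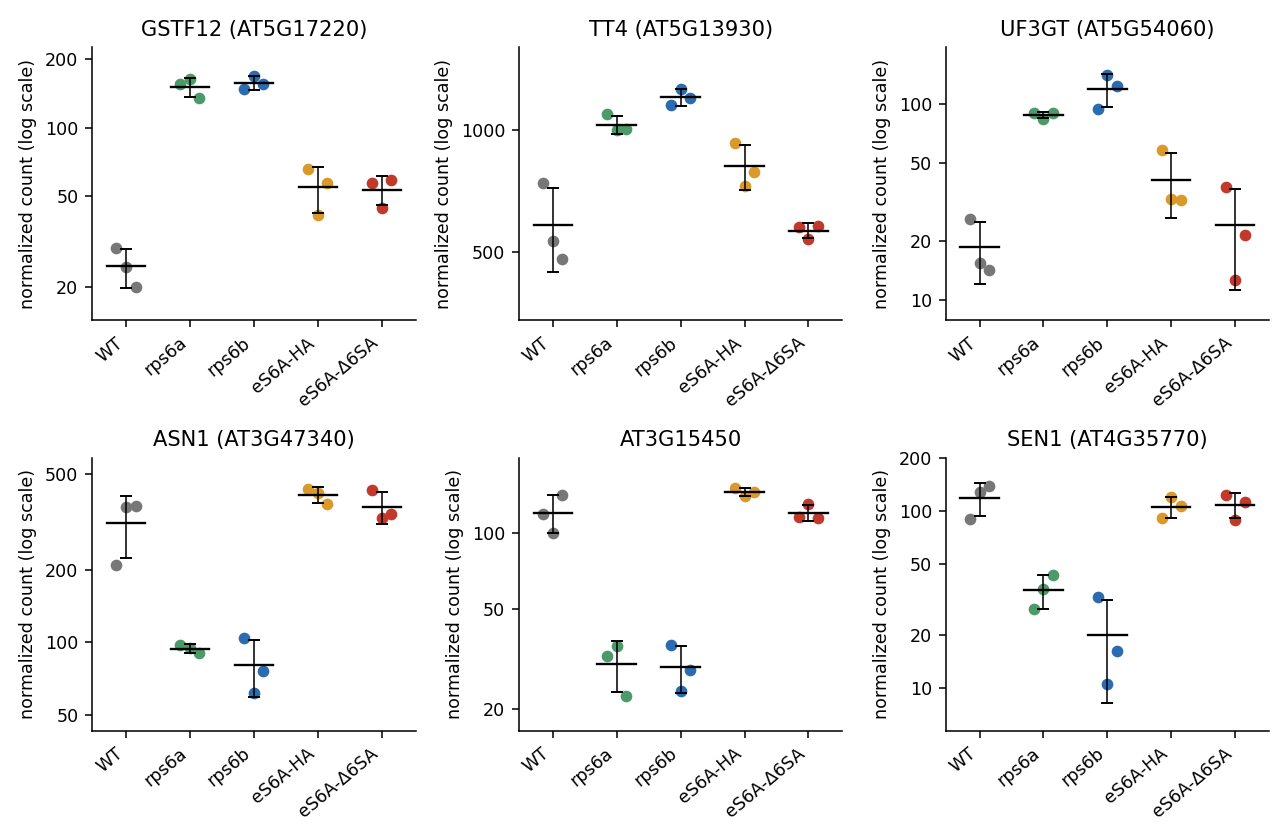
Normalized counts on a log scale of 3 flavonoid genes (top) and 3 sugar-response genes (bottom) in each library, by genotype; points are libraries, lines are means and bars are SDs. In all 6 genes the eS6A-Δ6SA libraries are separate from the rps6b libraries.

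Several of the largest single rises were in genes outside the lists. AT2G05540, a glycine-rich protein gene, was at 241, 252 and 232 in eS6A-Δ6SA and 43.1, 43.2 and 41.3 in rps6b (log2 fold change 2.48 with an SE of 0.16, adjusted p 8.59e-12 by limma). AT4G27450, of the same annotated family as AT3G15450, rose by 2.36, AT4G36850, a PQ-loop repeat gene, by 2.05, and BT5 (AT4G37610), a BTB and TAZ domain gene, by 1.96. AT3G62550, AT5G42250, an alcohol dehydrogenase family gene, and PP2-A13 (AT3G61060) rose by 2.11, 2.04 and 1.93. All of these were called with limma adjusted p from 7.45e-15 to 0.000218. None of them differed from WT in eS6A-Δ6SA at the threshold, where limma adjusted p ranged from 0.225 to 0.859. AT4G27450, ASN1, AT3G15450, BT5, PP2-A13, GSTF12, TT4, scpl10 and AT5G27850, and below RVE1, AT3G54500, AT1G74470, CH1, GMI1, EARLI1, NAC13, LKP2 and AS1, overlap another gene on the opposite strand, and use of strand in counting is not given in the sources used here, so their values are uncertain. RPS15, FIB2, AT3G51800, PSAD-2, SIGC, TSO2 and KIN10 overlap another gene on the same strand.

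**Figure D5:**
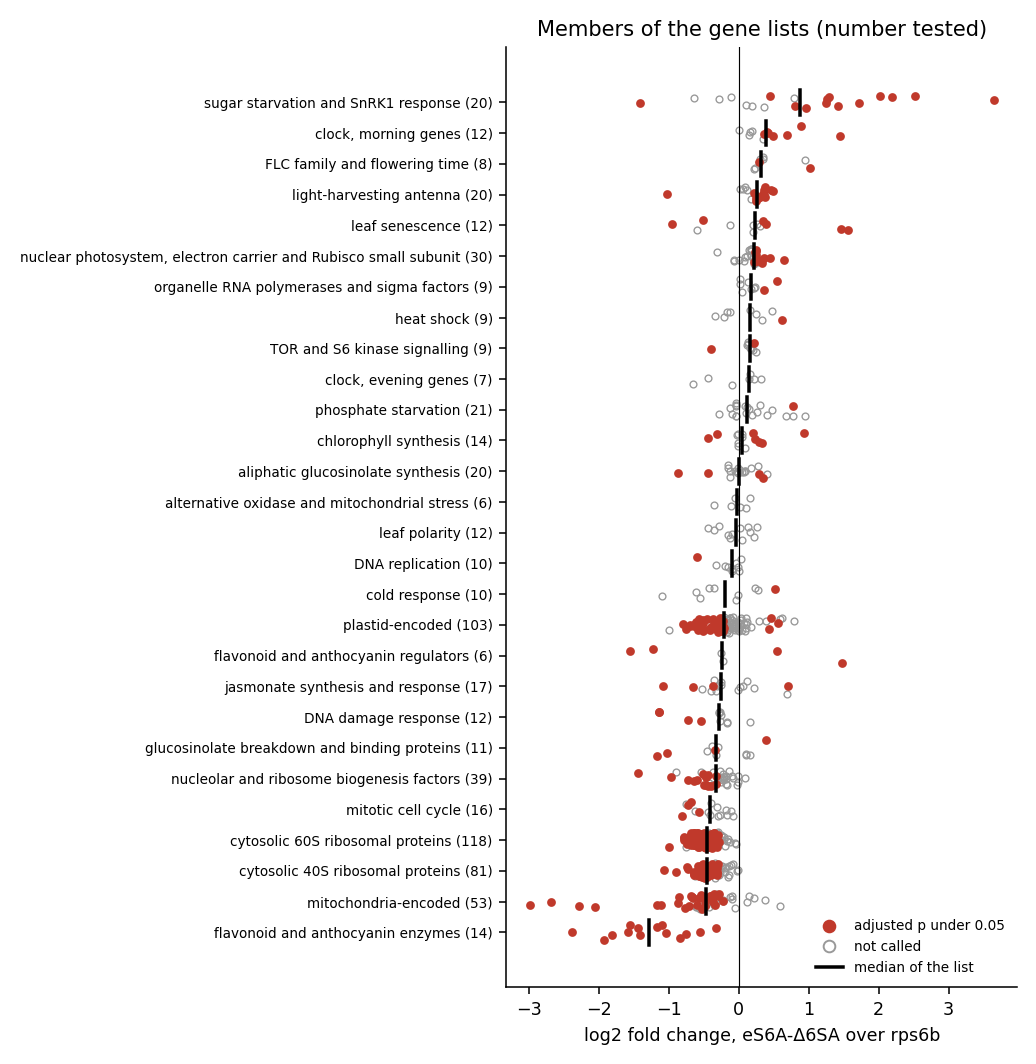
Log2 fold change, eS6A-Δ6SA over rps6b, of every tested member of 28 gene lists, ordered by the median of the list; filled points have an adjusted p under 0.05 and black lines are medians. Flavonoid enzymes lie lowest, with a median of -1.29, and sugar-response genes highest, at 0.88.

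Morning genes of the circadian clock were the next highest list. All 12 tested had a positive log2 fold change (11 by edgeR or DESeq2), with a median of 0.39. Of them 7 were called higher (8.64% of all genes were) and 0 lower by limma (0 at an unadjusted p under 0.05, and 0 by edgeR or DESeq2). In eS6A-HA against rps6b 8 of the 12 were called higher and 0 lower, beside 11.8% of all genes called higher. RVE1 (AT5G17300), a MYB-like factor, was at 458, 454 and 422 in eS6A-Δ6SA and 176, 156 and 155 in rps6b (log2 fold change 1.45 with an SE of 0.10, adjusted p 8.62e-13 by limma). CCA1 (AT2G46830), a core repressor of evening genes, was at 1016, 972 and 922 in eS6A-Δ6SA and 685, 705 and 677 in rps6b (log2 fold change 0.49 with an SE of 0.08, adjusted p 2.15e-05 by limma). RVE8 (AT3G09600) and AT3G54500 rose by 0.69 and 0.89. Their levels in eS6A-Δ6SA were not all those of WT: CCA1 averaged 1323 in WT and 970.1 in eS6A-Δ6SA (adjusted p 0.000377), and RVE1 650.4 and 444 (adjusted p 0.000938).

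A few genes were not called between eS6A-Δ6SA and rps6b but were called between eS6A-Δ6SA and WT. LHY (AT1G01060), the close partner of CCA1, was at 857, 848 and 876 in eS6A-Δ6SA and 895, 859 and 822 in rps6b (log2 fold change 0.0028, adjusted p 0.984), and at 1512 ± 86.5 in WT and 1347 ± 64.7 in eS6A-HA. HSP70 (AT3G12580), a heat-inducible chaperone, averaged 181 in eS6A-Δ6SA, 144 in rps6b and 460.1 in WT, with an adjusted p of 0.0579 for the first pair and 3.41e-09 for eS6A-Δ6SA against WT. Both were singled out after their values were seen. GI (AT1G22770), an evening gene, was at 128, 113 and 119.6 in eS6A-Δ6SA and 131, 136 and 119 in rps6b (adjusted p 0.672), beside a mean of 77.8 in WT (adjusted p 0.00195). The evening list as a whole had 0 of 7 called by limma, 3 at an unadjusted p under 0.05 and 0 by edgeR or DESeq2. Without eS6A-Δ6SA replicate 2 or 3, 1 was called lower, and under spike-in scaling 1 was called higher. Within it ZTL, TCP11 and LKP2, picked for the highest means, had log2 fold changes of 0.17, 0.32 and 0.15.

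Nuclear genes for photosynthesis were higher in eS6A-Δ6SA by small amounts. Of 20 antenna genes 13 were called higher and 1 lower (median 0.26), beside 8.64% and 7.89% of all tested genes. Among 30 genes for photosystem subunits, electron carriers and the Rubisco small subunit, 12 were called higher, with 0 called lower by limma, at an unadjusted p under 0.05, or by edgeR or DESeq2 (median 0.22). Without rps6b replicate 3 the counts called higher were 8 and 7, and without eS6A-Δ6SA replicate 1 the second was 6. Under spike-in scaling the second was 22. PSAF (AT1G31330), a photosystem I subunit, was at 12356, 11724 and 14639 in eS6A-Δ6SA and 8318, 8329 and 7937 in rps6b (log2 fold change 0.65 with an SE of 0.08, adjusted p 7.85e-08 by limma). PSAD-2, PSBY and PSAO rose by 0.45, 0.37 and 0.34. LHB1B1, LHCB2.2 and LHCA3, antenna proteins, rose by 0.46, 0.38 and 0.36, and reads of near-identical antenna genes can be shared. LHCB4.3 (AT2G40100), an antenna gene, was lower, at 48.6, 48.1 and 55.7 against 109, 103 and 99.7 (log2 fold change -1.02 with an SE of 0.17, adjusted p 3.13e-05 by limma).

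Chlorophyll synthesis genes were split, with 5 of 14 called higher and 2 lower, beside 8.64% and 7.89% of all genes. AT1G74470 and HEMA1 (AT1G58290), glutamyl-tRNA reductase at the first committed step, rose by 0.29 and 0.34, while GSA1 (AT5G63570), of the following step, fell by 0.44 (adjusted p 0.226 under spike-in scaling). CH1 (AT1G44446), which makes chlorophyll b, CRD1 and PORA were the other 3 called higher, and PCB2 the other called lower. CH1 rose by 0.24 and lost its call under upper quartile scaling and without any of 4 single libraries (eS6A-Δ6SA replicates 1 and 2, rps6b replicates 2 and 3, adjusted p 0.0526 to 0.112). Those 4, and eS6A-Δ6SA replicate 3, each left 2 or 3 genes of the list called higher and 1 or 2 lower. Of 9 genes for organelle RNA polymerases and sigma factors, SIGE (AT5G24120), a sigma factor induced by light and stress, was at 1097, 799 and 966 in eS6A-Δ6SA and 635, 678 and 618 in rps6b (log2 fold change 0.56 with an SE of 0.10, adjusted p 9.64e-05 by limma). SIGC rose by 0.36 (adjusted p 0.022), and its adjusted p was 0.0733 without eS6A-Δ6SA replicate 1, 0.180 without rps6b replicate 1 and 0.0554 by DESeq2.

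Of 103 plastid-encoded genes tested, 42 were called lower and 3 higher (median -0.20), beside 7.89% and 8.64% of all tested genes. Against WT, rps6b had 33 of them called higher and 2 lower, beside 11.6% and 11.7% of all genes. In eS6A-Δ6SA against WT 3 were called higher and 1 lower (1.33% and 1.24% of all genes). In eS6A-HA against rps6b 18 were called higher and 15 lower (11.8% and 11.2% of all genes). Of 53 mitochondria-encoded genes, 28 were called lower, with 0 called higher by limma, at an unadjusted p under 0.05, or by edgeR or DESeq2 (median -0.46). Against WT, rps6b had 36 of the 53 called higher (median 0.50), beside 11.6% of all genes. In eS6A-Δ6SA against WT 0 were called (median 0.06), and 7 were higher at an unadjusted p under 0.05. In eS6A-HA against rps6b 30 were called lower (median -0.44), beside 11.2% of all genes. ATCG00040 was at 37473, 43507 and 42781 in eS6A-Δ6SA and 61910, 71862 and 65816 in rps6b (log2 fold change -0.69 with an SE of 0.07, adjusted p 1.09e-09 by limma), and ATCG00780 and ATCG01130 fell by 0.63 and 0.60. ATCG00020 went the other way and rose by 0.56 (limma adjusted p 2.80e-08). The plastid share of gene reads was 57.7% ± 1.11 in eS6A-Δ6SA and 56.5% ± 0.461 in rps6b (exact permutation p = 0.2, SD, n = 3). Of gene reads, ATCG00020 alone held 26.2%, 25.3% and 22.6% in the eS6A-Δ6SA libraries and 18.1%, 18.0% and 17.2% in the rps6b libraries. The mitochondrial share was 0.411% ± 0.0162 and 0.788% ± 0.169, without overlap (exact permutation p = 0.1, the smallest possible). Of the summed normalized counts of mitochondria-encoded genes, ATMG00020, ATMG01390 and ATMG00030 held 45.4%, 17.7% and 32.0% in the 3 rps6b libraries and 6.04%, 9.13% and 8.72% in the 3 eS6A-Δ6SA libraries. The other members summed to 41030, 40240 and 41069 in rps6b and 31188, 31467 and 31003 in eS6A-Δ6SA, without overlap.

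ATMG00690 was at 572, 652 and 697 in eS6A-Δ6SA and 1069.7, 1160.1 and 1286 in rps6b (log2 fold change -0.87 with an SE of 0.09, adjusted p 9.15e-09 by limma), and ATMG00060, ATMG00510 and ATMG00660 fell by 0.49, 0.60 and 0.57. The steepest organelle differences varied between rps6b libraries. ATMG01390 was at 548, 883 and 969 in eS6A-Δ6SA and 7908, 3560.1 and 8312 in rps6b, and ATMG00020 at 1212, 1888 and 1677 in eS6A-Δ6SA and 23678, 4548 and 9531 in rps6b. With only the 6 libraries in the fit the adjusted p of ATMG00020 was 0.0850 and that of ATMG00030 0.131. The latter also lost its call without eS6A-Δ6SA replicate 1 (0.0555) or rps6b replicate 3 (0.0520). Under spike-in scaling 12 plastid-encoded genes were called lower and 4 higher, with a median of -0.03 and 47 of 103 members above 0, and 11 mitochondria-encoded genes were called lower, with a median of -0.29. The reference used does not name these organelle genes. Whether any codes for ribosomal RNA, which was depleted before sequencing, was not looked up here. The part of depletion in their values was not tested.

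Outside the organelle lists, 2 of the genes named for large falls are annotated as RNA without a protein. AT2G01010, annotated as 18S ribosomal RNA, had 1.06, 4.58 and 7.21 normalized counts in eS6A-Δ6SA and 57.2, 42.4 and 62.0 in rps6b, with means of 1.11 in WT, 10.5 in rps6a and 7.67 in eS6A-HA. It passed the filter on low values only through rps6b, so its values are a description. Ribosomal RNA was depleted before sequencing, and the part of depletion in these values was not tested. AT3G06355, annotated as a long noncoding RNA, was at 71.8, 87.1 and 156 in eS6A-Δ6SA and 967, 354 and 832 in rps6b. It overlaps AT3G41979 on the same strand, so its values are uncertain, and the part of depletion in them was not tested either.

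Calls in the cell cycle and DNA damage lists were all lower, and most were lost on leaving out a library. All 16 tested mitotic genes had lower means in eS6A-Δ6SA (median -0.40), and 4 were called lower (7.89% of all genes were), with 0 called higher by limma, at an unadjusted p under 0.05, or by edgeR or DESeq2. An unadjusted p under 0.05 was reached by 9, and edgeR called 5 lower and DESeq2 3. Under spike-in scaling limma called 0, and 3 of the 16 were no longer lower. CYCB2;2 (AT4G35620), a B-type cyclin of mitosis, was at 30.6, 29.8 and 41.2 in eS6A-Δ6SA and 69.0, 59.5 and 51.2 in rps6b (log2 fold change -0.81 with an SE of 0.22, adjusted p 0.00843 by limma). CYCA1;1, CYCB1;4 and CYCB2;4 fell by 0.68, 0.72 and 0.57. Each of these calls was lost on leaving out at least 1 library: rps6b replicate 1 for CYCB2;2 (0.0538), rps6b replicate 3 for CYCA1;1 (0.0620), rps6b replicate 2 for CYCB1;4 (0.0977), and eS6A-Δ6SA replicate 1 or rps6b replicate 2 or 3 for CYCB2;4 (0.275, 0.183 and 0.111). Without rps6b replicate 2 or 3, 2 mitotic genes were called. Against WT, eS6A-Δ6SA had 6 of the 16 called higher (1.33% of all genes) and rps6b had 14 (11.6% of all genes). The DNA replication list had 1 of 10 called lower (2 without eS6A-Δ6SA replicate 2), near the share of all genes. It was TSO2 (AT3G27060), a ribonucleotide reductase subunit, at 243, 288 and 259.7 in eS6A-Δ6SA and 371, 419.6 and 397 in rps6b (log2 fold change -0.59 with an SE of 0.14, adjusted p 0.00473 by limma).

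GMI1 (AT5G24280), a gene induced by DNA breaks, was at 60.2, 68.7 and 78.3 in eS6A-Δ6SA and 143, 148 and 168 in rps6b (log2 fold change -1.14 with an SE of 0.16, adjusted p 2.35e-06 by limma). Its eS6A-Δ6SA level lay between that of rps6b and those of WT and eS6A-HA, since WT had 23.7 and eS6A-HA 19.1 (adjusted p 4.77e-08 and 1.38e-09 for eS6A-Δ6SA against each). NAC044 (AT3G01600), a transcription factor of the damage response, was at 16.9, 28.6 and 12.4 in eS6A-Δ6SA and 37.6, 44.8 and 41.3 in rps6b (limma adjusted p 0.0462), with 1.49 in WT. BRCA1 and CYCB1;1 fell by 0.54 and 0.72 (adjusted p 0.0351 and 0.0436). Of 12 DNA damage genes tested these 4 were called lower (7.89% of all genes were), with 0 higher by limma, at an unadjusted p under 0.05, or by edgeR or DESeq2. Leaving out any single library of either group left 1 or 2 genes of the list called, and DESeq2 called 2. Where leaving out a library ended the call, the adjusted p was 0.0527 to 0.13 for BRCA1 (any library left out), 0.105 to 0.19 for CYCB1;1 (eS6A-Δ6SA replicate 1 or 2, rps6b replicate 2 or 3) and 0.0794 to 0.206 for NAC044 (any library but eS6A-Δ6SA replicate 2). Under spike-in scaling the 3 calls were lost as well (0.208, 0.156 and 0.0714) and 1 gene of the list was called.

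Jasmonate and glucosinolate lists held large differences in a few members. LOX2 (AT3G45140), the lipoxygenase of chloroplast jasmonate synthesis, was at 2517, 2220.4 and 2615 in eS6A-Δ6SA and 5428, 5016 and 5041 in rps6b (log2 fold change -1.08 with an SE of 0.09, adjusted p 1.82e-11 by limma). AOC2 and AOS, of the following steps, fell by 0.65 and 0.36, the second losing its call (0.0539 to 0.127) without each library but eS6A-Δ6SA replicate 1. TIFY7 (AT1G70700), a jasmonate repressor also named JAZ9, rose by 0.70 (limma adjusted p 4.15e-06). Of 17 jasmonate genes tested 3 were called lower and 1 higher, beside 7.89% and 8.64% of all genes. ESM1 (AT3G14210), which steers glucosinolate breakdown, was at 1739, 1539.8 and 1907 in eS6A-Δ6SA and 3442, 3653 and 3434 in rps6b (log2 fold change -1.03 with an SE of 0.09, adjusted p 8.20e-11 by limma). MBP1 and PBP1, binding proteins of myrosinase-type enzymes, fell by 1.17 and 0.34, and TGG1 (AT5G26000), a myrosinase, rose by 0.39, so that 3 of 11 genes of glucosinolate breakdown were called lower and 1 higher. LOX2, AOC2, MBP1 and ESM1 were nevertheless higher in eS6A-Δ6SA than in WT (limma adjusted p 5.50e-09, 1.56e-05, 6.82e-05 and 0.0364). In aliphatic glucosinolate synthesis 2 of 20 were called lower, FMO GS-OX3 and IMS2, and 2 higher, MAM1 and MYB29, near the 7.89% and 8.64% of all genes. The call of MYB29 was lost in 10 of 18 alternatives, each single left-out library included. MAM1 lost its call without eS6A-Δ6SA replicate 3 (0.0572) and IMS2 without eS6A-Δ6SA replicate 1 (0.0501), and MYB29 had an adjusted p of 0.0583 to 0.14 on leaving out a library.

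Other large falls were in genes outside the lists. EARLI1 (AT4G12480), a lipid-transfer protein gene, was at 7.39, 5.73 and 13.4 in eS6A-Δ6SA and 83.1, 61.9 and 93.4 in rps6b (log2 fold change -3.09 with an SE of 0.62, adjusted p 0.00475 by limma). EXT4 (AT1G76930), an extensin of the cell wall, was at 16.9, 19.5 and 25.8 in eS6A-Δ6SA and 133, 67.6 and 105 in rps6b (log2 fold change -2.21 with an SE of 0.26, adjusted p 1.65e-07 by limma), and AT2G43150, annotated as extensin-like, fell by 2.31. AT1G13609, a defensin-like gene, AT5G26220, a ChaC-like gene, and AT2G16586 fell by 2.61, 2.50 and 2.11. Libraries of the groups did not overlap for any of these genes.

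Flowering and senescence lists held single strong members. AGL20 (AT2G45660), the flowering promoter SOC1, was at 338, 332 and 299 in eS6A-Δ6SA and 176, 156 and 146 in rps6b (log2 fold change 1.02 with an SE of 0.11, adjusted p 1.74e-08 by limma), and SVP rose by 0.29 (adjusted p 0.0117, and 0.0601 without rps6b replicate 3). All 8 tested flowering genes had positive log2 fold changes and 2 were called higher (8.64% of all genes were). Lower calls were 0 by limma, at an unadjusted p under 0.05, or by edgeR or DESeq2. NAP (AT1G69490), a senescence regulator, was at 182, 103 and 125 in eS6A-Δ6SA and 53.3, 52.1 and 38.6 in rps6b (log2 fold change 1.46 with an SE of 0.20, adjusted p 3.92e-05 by limma). NYC1, a chlorophyll b reductase, rose by 0.39, and SAG29 fell by 0.51. NAC6 rose by 1.56 and passed the filter on low values only with eS6A-Δ6SA included, so its values are a description. It lost its call without eS6A-Δ6SA replicate 3 (0.0503) or rps6b replicate 3 (0.0697). Of 12 senescence genes tested 4 were called higher and 2 lower, beside 8.64% and 7.89% of all genes. Those higher were NAP, NYC1, ACD1 and NAC6, of which NAC6 is a description only, and those lower SAG29 and SAG21. Leaving out any single library but rps6b replicate 2 left 1 called lower.

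Beside 16.5% of all tested genes called, lists with few or no calls were heat shock (1 of 9 called, HSFB2A), phosphate starvation (1 of 21, SQD2), cold response (1 of 10, KIN2), leaf polarity (0 of 12) and alternative oxidase with mitochondrial stress (0 of 6). The last list had 0 at an unadjusted p under 0.05 and 0 by edgeR or DESeq2, but 2 of 10 called lower with no filter on low values, and leaf polarity had 1 at an unadjusted p under 0.05 and 0 by either tool. Without eS6A-Δ6SA replicate 2 or 3 or rps6b replicate 1 leaf polarity had 1 call, and without eS6A-Δ6SA replicate 2 heat shock had 2, phosphate starvation 3 and cold response 2. Of the 10 cold response genes 7 had negative log2 fold changes (median -0.19). At an unadjusted p under 0.05, 3 of them were lower and 2 higher, and edgeR called 2 lower and 1 higher. The calls of HSFB2A (0.62), SQD2 (0.78) and KIN2 (0.52) were all lost without rps6b replicate 3 (0.127, 0.0545 and 0.0641), HSFB2A and KIN2 also without eS6A-Δ6SA replicate 1 (0.0722 and 0.0600) and KIN2 without rps6b replicate 2 (0.0568). AS1 (AT2G37630), a leaf polarity gene and shoot marker, was at 183, 207 and 236 in eS6A-Δ6SA and 158, 244 and 313 in rps6b, and AFO (AT2G45190), also a shoot marker, at 219.5, 269 and 219.5 in eS6A-Δ6SA and 219.6, 198 and 172 in rps6b. PHB and YAB3 had log2 fold changes of 0.22 and 0.17. AOX1A, NAC017, NAC13 and NDA2 had log2 fold changes of 0.17, 0.02, 0.10 and -0.35.

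At a pair of loci 1 line stood apart from every other genotype. AT3G29633, annotated as an uncharacterized protein, had 96.0, 89.4 and 99.98 normalized counts in eS6A-Δ6SA and a mean of 1.66 in rps6b, where each library held 2 reads of it. It passed the filter on low values only through eS6A-Δ6SA, so its values are a description. Its mean was 0.395 in WT, 1.24 in rps6a and 0.343 in eS6A-HA, and it was the only gene in the comparison with at most 3 reads in every library of 1 group and a mean of at least 50 in the other. DWF5 (AT1G50430), a reductase of brassinosteroid synthesis, was at 199, 223 and 235 in eS6A-Δ6SA and 60.4, 65.2 and 63.8 in rps6b (log2 fold change 1.78 with an SE of 0.12, adjusted p 9.68e-14 by limma). There rps6b was the low group, since WT averaged 206, rps6a 248 and eS6A-HA 203, and the limma adjusted p of rps6b against WT was 2.15e-13.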

How the data were processed

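Values were the deposited table of normalized counts, a signal that the authors deposited and whose values behave as gene counts divided by 1 factor per library. The submitters' processing notes name STAR 2.7.6a, featureCounts 2.0.0, DESeq2 1.26.0 and TAIR10; settings and use of strand are not given in the sources used here. The libraries held total RNA with ribosomal RNA depleted and spike-in RNAs added, read as paired ends of 75 bases. Deposited values were whole multiples of 1 read for 100% of values within a tolerance of 0.02. On reads recovered in this way edgeR 4.0.16 called 2851 genes and DESeq2 1.42.0 called 2059.

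The main test was limma 3.58.1 in R 4.3.3, with trend and robust settings, on log2(normalized count + 1) over all 15 libraries of 5 genotypes, as a contrast of eS6A-Δ6SA with rps6b. Genes needed a mean of at least 10, and p-values were adjusted by Benjamini-Hochberg over 16335 genes with a threshold of 0.05. Fold changes on this scale understate changes of low genes. The 77 spike-in rows were left out. Intervals of counting error were not used, and precision rests on 3 libraries a group.

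Genes named are RPS6A and RPS6B, the 12 largest rises and 12 largest falls among called genes with a mean of at least 50 and no overlap between groups, genes with at most 3 reads in every library of 1 group, and up to 4 members of each list by adjusted p, or by mean where none was called. The members and lists were chosen with earlier results of these data known. Names and sequences come from RefSeq TAIR10.1, in which 21565 of 21777 IDs were found; the deposited table holds no coordinates. Tested on simulated data, limma recovered 83% of 200 genes changed 2-fold among 16335 and called 12 unchanged genes. No smaller change was simulated, so this recovery does not apply to smaller changes. Of the 2701 genes called here 304 reached at least 1 on the log2 scale. Alternatives were other pseudocounts, filters and scalings, edgeR, DESeq2, a replicate block, only the 6 libraries, and leaving out each library.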

Additional observations from a re-analysis of the deposited data

How the results depend on the processing

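Of 119 genes named by the rule, 107 were called, 75 of them in every alternative with the same direction, 32 lost the call in at least 1 alternative and 0 changed sign. Of the 12 not called, 4 were called in at least 1. Scaled to the spike-in RNAs, 2122 genes were higher and 333 lower, so that 86.4% of calls were higher, against 52.3% in the main result, and RPS6A moved to -0.30 (limma adjusted p 0.119). Under that scaling the calls of PBP1, FMO GS-OX3, SAG29, IMS2, ATMG00060 and AOS were also lost (limma adjusted p 0.461, 0.237, 0.154, 0.0994, 0.0704 and 0.449). A requirement of at least 1 on the log2 scale left 304 genes, 127 higher and 177 lower. Leaving out 1 library gave 1852 to 2445 genes differing, 984 to 1276 higher and 832 to 1169 lower; the lowest total and the fewest higher were without eS6A-Δ6SA replicate 1, and the fewest lower without rps6b replicate 3. With the replicate number as a block 2756 genes were called, 1444 higher and 1312 lower. Deviations of same-numbered libraries from their group means correlated at 0.051, -0.0076 and 0.041. Replicates 1 and 3 of eS6A-Δ6SA correlated best with the same-numbered rps6b library, and replicate 2 with rps6b replicate 3 (0.019). All these correlations were near 0, so they cannot decide whether same-numbered libraries were handled together. The cause of these shifts was not tested. With 3 libraries a group, the exact permutation test of a single share or sum cannot go below 0.1.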
